A study of Homo sapiens with 58 samples.

Results

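Autophagy is the route by which a cell wraps cytoplasmic material in a double membrane and delivers it to the lysosome, and the messenger RNAs of its machinery and of the lysosome were followed here in HepG2, a human liver cancer line. The 37 genes came from a list of autophagy receptors, ATG proteins, lysosomal hydrolases and proton pump subunits. They were chosen with earlier results of these data known. They were looked up by gene symbol among the 60675 gene identifiers in the count table. All 37 were found, and 36 had enough reads to be tested. The one not tested was CTSZ, a cathepsin, with at most 17 counts (0.651 CPM) in any library. CPM, the unit of level used here, is a gene's counts scaled to a common library total, and is not corrected for gene length.

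The cells had been exposed for 24 h to 1 of 8 herbal extracts. The water extracts were of the multi-herb formulas Sayeok-tang and Bojungikgi-tang. The ethanol extracts were of single herbs: Scutellariae Radix, Coptidis Rhizoma, Zizyphi Fructus, Pinelliae Tuber, Zingiberis Rhizoma (called dried ginger here) and Zingiberis Rhizoma Recens (called fresh ginger). The doses were 500 (high), 100 (medium) and 20 (low) µg/mL, apart from Coptidis Rhizoma, whose libraries were from 56 (medium) and 11.2 (low) µg/mL, since toxic extracts were given less, per the series text. Control cells received the vehicle DMSO, at 0.1% by the sample labels but at another concentration by the series text. The solvent of the extract groups is not given in the sources used here. Of the 24 groups, 15 had 3 libraries, among them the vehicle. Another 4 had 2: dried ginger at its high dose, and Bojungikgi-tang at each of its 3. The 5 groups of Coptidis Rhizoma and Zizyphi Fructus had 1 library each. HepG2 is a single tumour line, and no label ties a replicate to a culture of its own, so p-values measure the spread between these samples, which may be technical.

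Autophagy starts with the ULK1 kinase and the BECN1 lipid kinase complex, and the growing membrane is then decorated with ATG8 proteins (the LC3 and GABARAP families) by a conjugation cascade of ATG3, ATG5, ATG7, ATG12 and ATG16L1. Cargo receptors such as SQSTM1, also called p62, bind both the cargo and the ATG8 proteins, and are degraded with the cargo once the autophagosome fuses with the lysosome. Inside the lysosome a proton-pumping V-ATPase keeps the pH low for the cathepsins and glycosidases, and the transcription factors TFEB and TFE3 can switch on many of these genes through a palindromic promoter motif, the CLEAR element. In hepatocytes this system handles glycogen, lipid droplets and damaged mitochondria. A messenger RNA level measures neither the protein nor the rate of autophagy. In a bulk sample, moreover, a change in the mix of cell states and a change in RNA per cell cannot be told apart.

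Library totals ran from 22143845 to 31859981 expected counts (24077535 to 26409029 in the vehicle). The line expressed its hepatocyte markers, with a sum over 7 marker genes between 16200 and 22800 CPM. Of the markers of other cells, PTPRC (leukocytes) and DCN (fibroblasts) were at 0 in all 58 libraries, while LYZ, listed as a leukocyte gene, stood at 1150 to 2320 CPM. The 4 fibroblast markers summed to 3.86 to 24.2 CPM, with PDGFRB at 3.7 to 23.5 CPM. The 3 endothelial markers summed to 2.63 to 5.08 CPM. A few libraries stood apart from their groups. Replicate 3 of Scutellariae Radix low differed from its 2 partners by a chi-square of 13.69 and 17.2 per gene (3.4 between the partners), and replicate 3 of dried ginger low by 14.25 and 15.18 (2.34 between the partners). Earlier work on these data had also set the Zizyphi Fructus low library apart, so the counts below were recomputed without these 3. Fresh ginger high replicate 1 differed from its partners by less, 8.47 and 9.45 (3.74 between the partners), and was kept in that run. The vehicle libraries carry a code prefix of their own in the labels and each pair of extracts shares another, so in comparisons with the vehicle a handling difference and the treatment cannot be told apart. Comparisons of high with low dose and of extract with extract stay within a prefix.

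RefSeq promoter sequences (250 bases before to 50 after the annotated start, GRCh38.p14) were found for 29 of the 37 genes, and they are shown because the CLEAR element is the motif that TFEB and TFE3 recognise. Only 1 annotated start was used per gene, so other starts of a gene were not searched. Both strands were searched. The whole element, GTCACGTGAC, was in 2 of the 29 windows (6.9%), those of MCOLN1 and GAA, and in 0.381% of all 27305 promoters of the same length. Its core TCACGTG, which the whole element contains, was in 8 of the 29 windows (27.6%) and in 3.82% of all promoters. The 8 belonged to ATG3, NEU1, CTSD, LAMP1, ATP6V0D1, GAA, MCOLN1 and CTSA. The windows of SQSTM1, GABARAPL1, MAP1LC3B, GLA, CTSL and TFEB did not contain these letters, and CTSB has no entry in the promoter table. The core of the antioxidant response element, TGACNNNGC, the site of the stress factor NRF2, was in 10 of the 29 windows and in 13.6% of all promoters, and the AP-1 site TGAGTCA in 1 of 29 (TFE3) and 4.92% of all. The cAMP response element TGACGTCA, searched for only after the GABARAPL1 window had been read, was in that window alone of the 29 and in 1.98% of all promoters. A match describes letters and is neither a binding site nor a cause, and its lack says only that these letters are not in this window.

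The upstream stretches below show a gene with many cores (LAMP1) and one with the whole element (MCOLN1). The others are SQSTM1, with the largest rise in Sayeok-tang, both gingers and Pinelliae Tuber at the high dose, and the factor TFEB. Neither SQSTM1 nor TFEB has a core in its window. Each gives the 250 bases before the start in the gene's own direction, 5′ to 3′, with every CLEAR core in capitals (8 letters where the 2 strands' matches join). None overlaps an annotated exon of the same strand in GENCODE 29. The TFEB window lies inside the annotated span of the gene, downstream of its outermost start. MCOLN1 lies at chr19:7522374-7522623 on the plus strand, LAMP1 at chr13:113296989-113297238 on the plus strand, SQSTM1 at chr5:179806143-179806392 on the plus strand and TFEB at chr6:41735609-41735858 on the minus strand.
MCOLN1: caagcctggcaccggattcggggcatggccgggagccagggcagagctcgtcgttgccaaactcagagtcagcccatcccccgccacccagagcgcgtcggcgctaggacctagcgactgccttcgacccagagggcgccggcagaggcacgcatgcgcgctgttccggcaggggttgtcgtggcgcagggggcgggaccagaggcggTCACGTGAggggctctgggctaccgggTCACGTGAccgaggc
LAMP1: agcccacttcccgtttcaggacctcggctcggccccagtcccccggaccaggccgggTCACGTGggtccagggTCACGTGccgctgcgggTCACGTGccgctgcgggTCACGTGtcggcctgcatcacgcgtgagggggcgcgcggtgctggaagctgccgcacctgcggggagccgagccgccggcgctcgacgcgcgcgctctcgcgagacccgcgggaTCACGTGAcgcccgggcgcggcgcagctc
SQSTM1: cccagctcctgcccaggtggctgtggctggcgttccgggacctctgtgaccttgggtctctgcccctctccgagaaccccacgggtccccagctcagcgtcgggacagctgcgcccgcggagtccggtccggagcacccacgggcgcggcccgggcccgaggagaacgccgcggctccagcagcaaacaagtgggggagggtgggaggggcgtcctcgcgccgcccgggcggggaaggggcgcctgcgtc
TFEB: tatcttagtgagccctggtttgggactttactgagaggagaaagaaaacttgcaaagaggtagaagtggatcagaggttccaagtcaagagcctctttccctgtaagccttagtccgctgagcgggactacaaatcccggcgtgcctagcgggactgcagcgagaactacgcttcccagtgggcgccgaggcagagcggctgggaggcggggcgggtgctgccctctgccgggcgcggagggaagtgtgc

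Some of the other matches are given with 10 bases on either side and the motif in capitals, to show the whole element, the core of hydrolase genes whose levels are described below, and the match in GABARAPL1. The 2 whole elements of GAA, which encodes the glycogen-degrading acid alpha-glucosidase, are at chr17:80101493-80101522 and chr17:80101538-80101567 on the plus strand. The core of CTSD is at chr11:1763958-1763984 on the minus strand, the core of NEU1 is its only one, and the cAMP response element of GABARAPL1 is at chr12:10212837-10212864 on the plus strand.
GAA, first element: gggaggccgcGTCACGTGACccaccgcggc
GAA, second element: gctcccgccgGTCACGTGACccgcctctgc
CTSD: cggccgcgccCACGTGAccggtccggg
NEU1: tgctgcgtgaTCACGTGggaggagatg
GABARAPL1: gctcgcggggTGACGTCAcagcccgacg

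The main comparisons asked which genes each extract changed against the vehicle. A gene was called higher or lower at an adjusted p below 0.05 by edgeR's quasi-likelihood test, with Benjamini-Hochberg adjustment over all 13945 genes tested, and this test gives every adjusted p below. Fold changes are log2 values with their standard error (SE). Many genes of these cells were called at the high doses, so the counts of the autophagy and lysosome genes are to be read beside the share of all tested genes called in the same direction. Of the 36 genes tested, 9 were higher and 8 lower at the high dose of Sayeok-tang, where 20.3% of all genes were higher and 19.9% lower. Fresh ginger high gave 19 higher and 5 lower (24.3% and 23.6% of all genes). Dried ginger high gave 24 higher and 2 lower (23.3% and 22.8% of all genes). At the high dose of Scutellariae Radix 23 were higher and 5 lower (28.7% and 28.1% of all genes). In the gingers and Scutellariae Radix the genes called higher were 52.8 to 66.7% of those tested, and the genes called lower 5.56 to 13.9%, whereas the 2 shares in Sayeok-tang, 25% and 22.2%, lay close to those of all genes.

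Bojungikgi-tang and Pinelliae Tuber changed few of them even at 500 µg/mL. SQSTM1 and GLA were the 2 genes higher with Bojungikgi-tang and none was lower (2.24% and 2.31% of all genes). By DESeq2 none was lower either, and 8 genes had an unadjusted p below 0.05 in either direction. With Pinelliae Tuber, SQSTM1 and LAMP1 were higher and NBR1, WIPI1 and NEU1 lower (9.14% and 6.57% of all genes). The median log2 change over the 36 genes was 0.03 for Sayeok-tang, -0.03 for Bojungikgi-tang, 0.13 for fresh ginger, 0.21 for dried ginger, -0.02 for Pinelliae Tuber and 0.18 for Scutellariae Radix, beside 0 to 0.01 over all genes. These comparisons share the vehicle libraries.

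**Figure D1:**
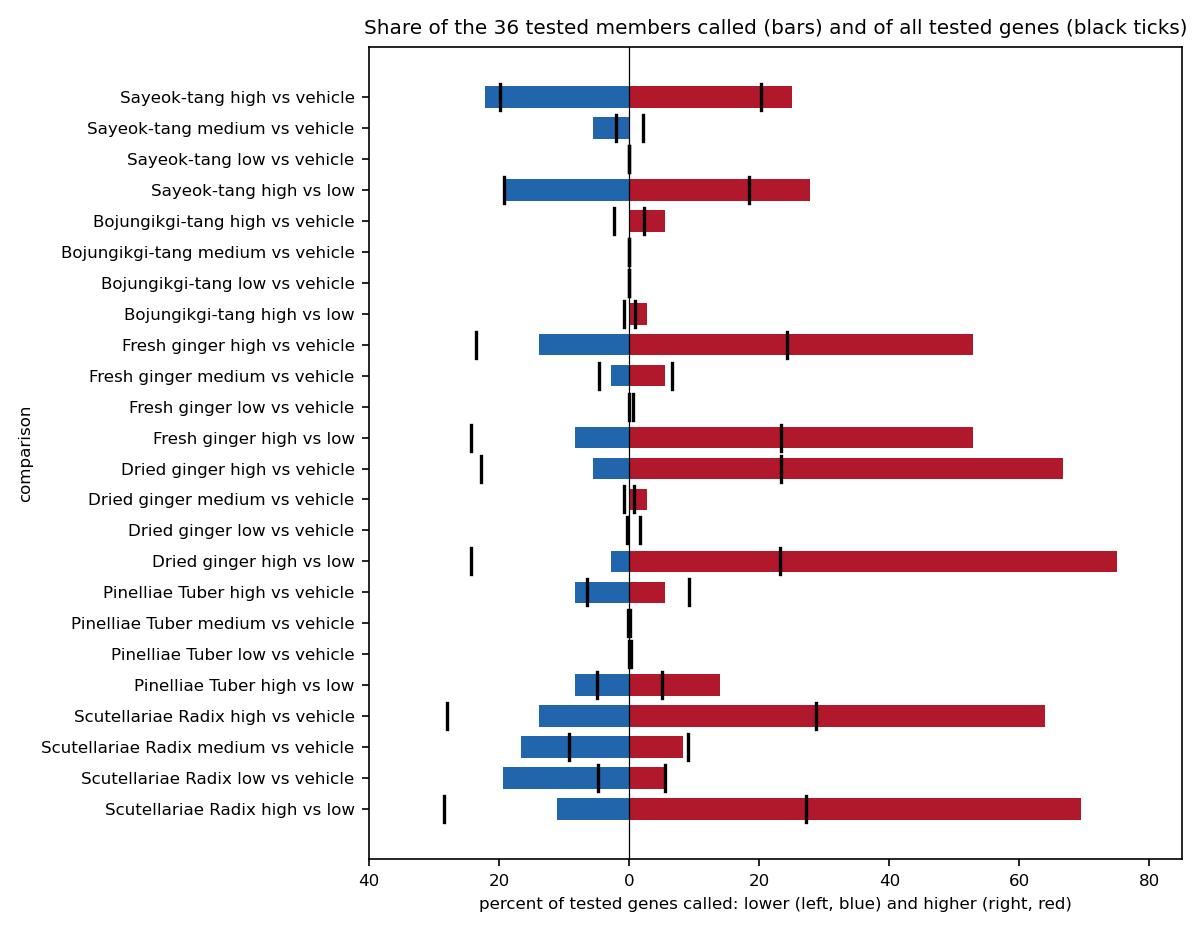
Percent of the 36 tested autophagy and lysosome genes called lower (blue, left) and higher (red, right) in each dose comparison, with black ticks for the same shares among all 13945 tested genes. The red bars of both gingers and Scutellariae Radix at the high dose reach 52.8 to 66.7%, well past their ticks at 23.3 to 28.7%.

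Changes of at least 1.5-fold were few. By that stricter rule 2 genes were higher and 0 lower with Sayeok-tang (2.71% and 3.96% of all genes), 3 and 0 with fresh ginger (6.56% and 4.09%), 5 and 1 with dried ginger (5.76% and 5.07%) and 6 and 1 with Scutellariae Radix (7.47% and 6.84%). SQSTM1 and GLA passed it in all 4, GABARAPL1 in the last 3, CTSL and CTSB in dried ginger and Scutellariae Radix, and MAP1LC3B in Scutellariae Radix. TFEB was the 1 gene lower in dried ginger and in Scutellariae Radix.

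**Figure D2:**
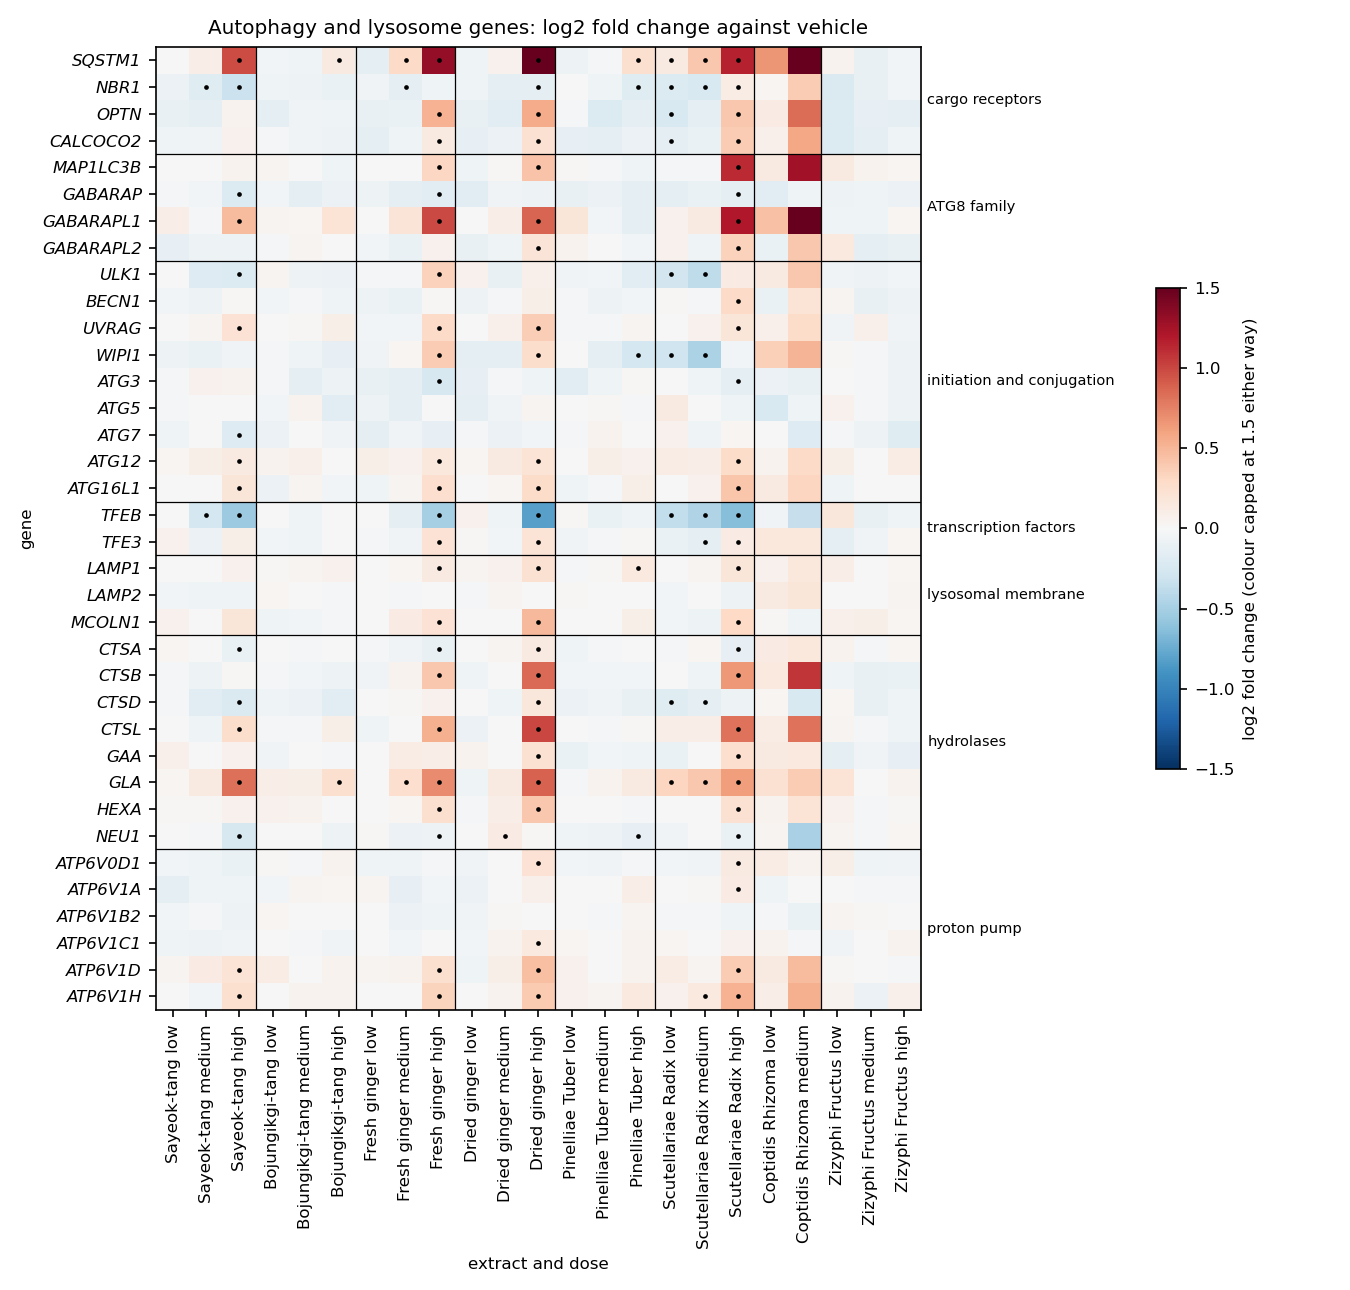
Log2 fold change against the vehicle of the 36 tested genes (rows, by role) in each extract and dose (columns, low to high within an extract), with a dot where the gene was called. The 5 columns of Coptidis Rhizoma and Zizyphi Fructus rest on 1 library each and carry no test, and SQSTM1, GABARAPL1, GLA, CTSL and CTSB form the darkest red rows while TFEB forms the blue one.

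Among the cargo receptors, SQSTM1 (ENSG00000161011, chr5:179806398-179838078) is the receptor for ubiquitin-tagged cargo. It had the largest called rise of all 36 genes with Sayeok-tang, both gingers and Pinelliae Tuber at the high dose. In the vehicle its levels were 263, 257 and 255 CPM. They were 511, 505 and 518 CPM with Sayeok-tang high, 686, 616 and 633 CPM with fresh ginger high, and 598, 556 and 566 CPM with Scutellariae Radix high. The 2 dried ginger high libraries reached 831 and 820 CPM, above every other tested group, and no library of these 4 groups came near the vehicle range. The log2 changes were 0.98 ± 0.0356 (adjusted p = 3e-26) for Sayeok-tang, 1.32 ± 0.0357 (4.7e-31) for fresh ginger, 1.68 ± 0.0388 (1.1e-33) for dried ginger and 1.15 ± 0.0356 (1.5e-29) for Scutellariae Radix. Pinelliae Tuber high, at 305, 300 and 308 CPM, gave a smaller rise of 0.24 ± 0.0356 (adjusted p = 4.3e-06). The 2 Bojungikgi-tang high libraries were at 270 and 298 CPM, for a change of 0.14 ± 0.0398 (adjusted p = 0.038). That last call was lost when only the 2 groups compared were fitted (adjusted p = 0.13) and when no filter on low counts was used (adjusted p = 0.16). It was lost as well without any 1 vehicle library and without Bojungikgi-tang high replicate 3, where the change was 0.06 (adjusted p = 0.57).

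The other 3 receptors moved less and not together. OPTN, the receptor best known from the clearance of mitochondria and bacteria, stood at 20.9, 23.4 and 22.3 CPM in the vehicle. It rose to 31.4, 32.3 and 32.2 CPM with fresh ginger high, to 33.0 and 32.3 CPM with dried ginger high and to 29.8, 28.6 and 30.0 CPM with Scutellariae Radix high. All 8 libraries lay above the vehicle, and the log2 changes were 0.52 ± 0.0574, 0.56 ± 0.064 and 0.41 ± 0.0577. With Sayeok-tang high OPTN was at 21.9, 21.9 and 25.0 CPM, within reach of the vehicle, and was not called. CALCOCO2 (NDP52), a receptor for bacteria and mitochondria, rose by 0.14 to 0.38 in the same 3 extracts. NBR1, a receptor that works with SQSTM1, went the other way in most extracts, from 110, 120 and 117 CPM in the vehicle to 89.7, 89.5 and 99.2 CPM with Sayeok-tang high (-0.32 ± 0.039, adjusted p = 5.6e-09) and to 101, 103 and 102 CPM with Pinelliae Tuber high (-0.18 ± 0.0387, adjusted p = 0.00061). NBR1 was also lower with dried ginger high, at 103 and 107 CPM, but this call was lost without vehicle replicate 2 or dried ginger high replicate 1. In Scutellariae Radix high it was higher, at 124, 126 and 126 CPM, by 0.11 ± 0.0384 (adjusted p = 0.0099), a call lost without vehicle replicate 1 (adjusted p = 0.11).

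**Figure D3:**
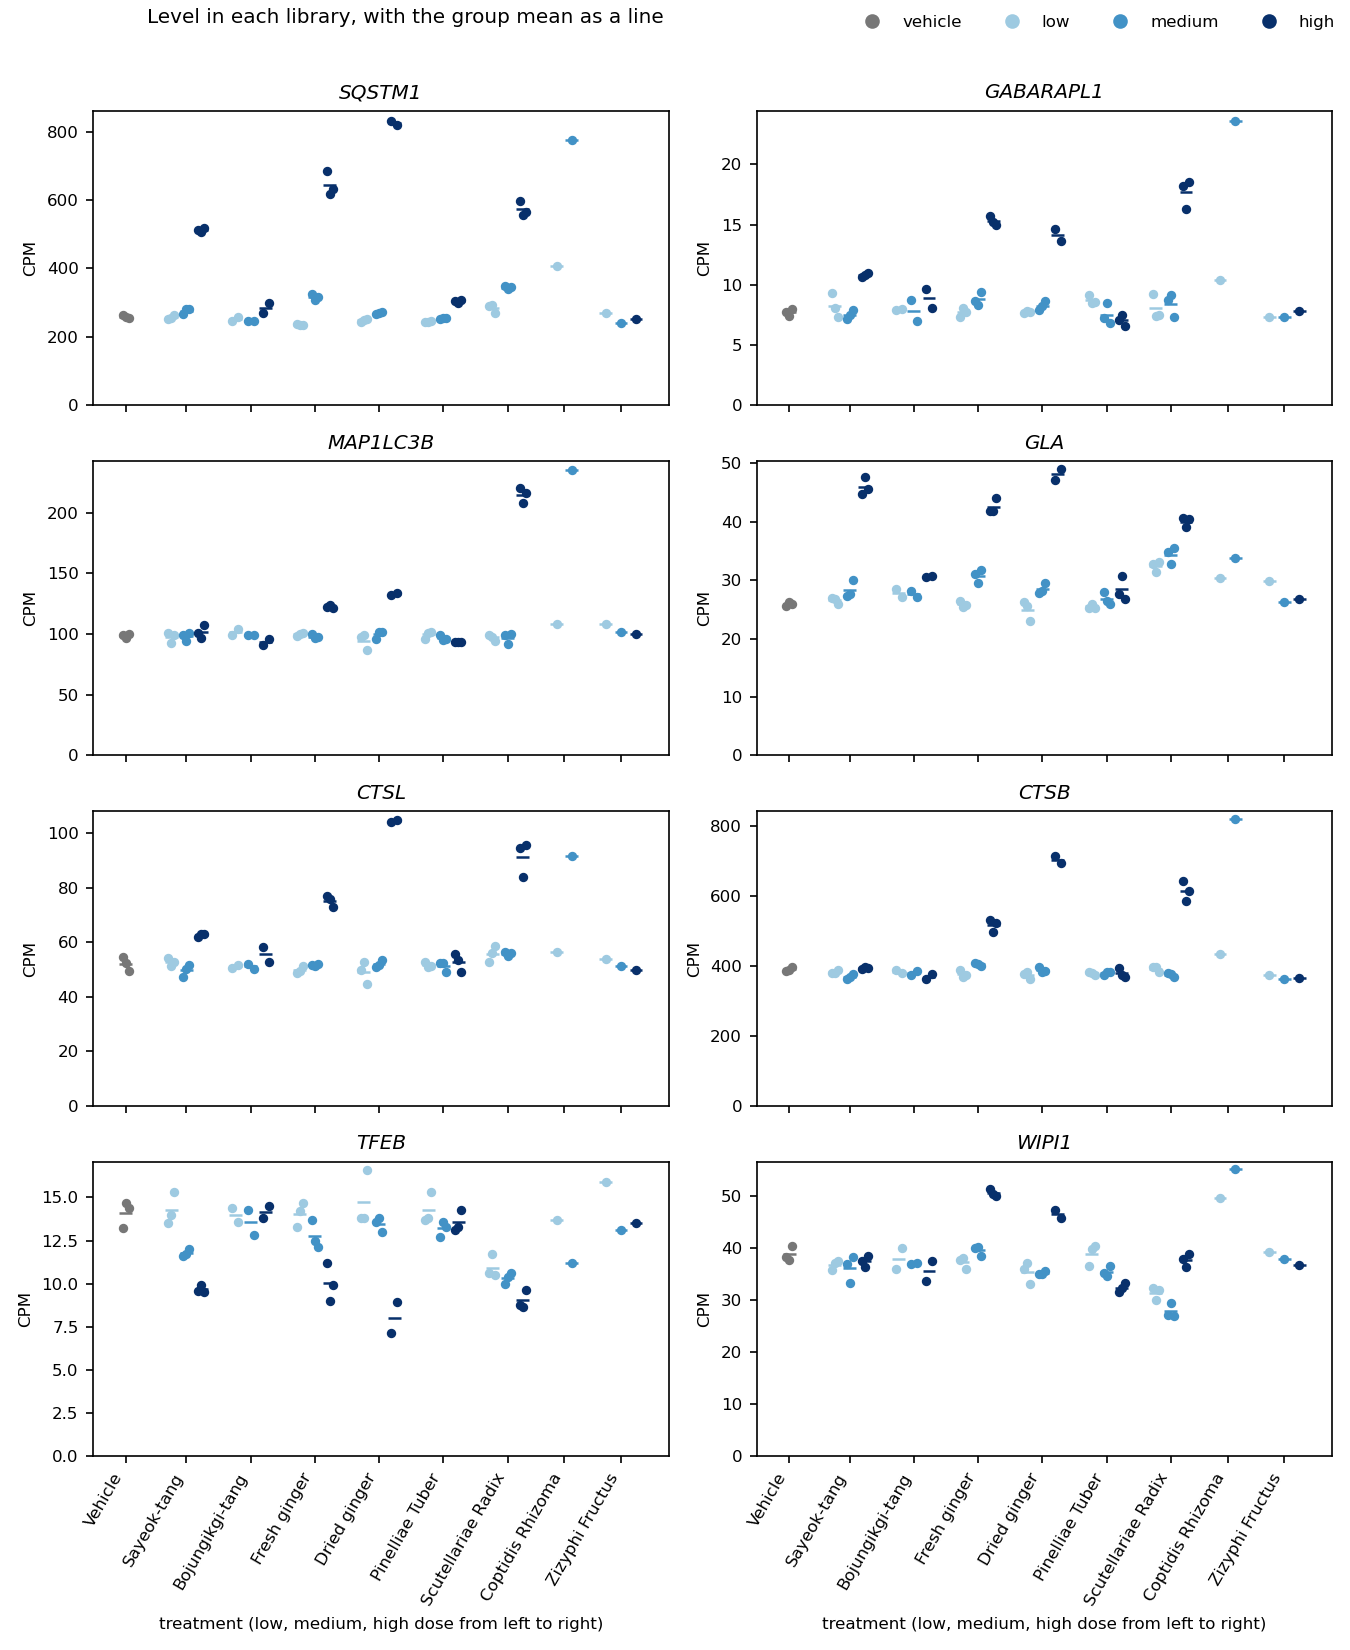
Level in CPM (linear axis from 0) of 8 genes in each of the 58 libraries, grouped by treatment with the low, medium and high dose from left to right and the group mean as a line. SQSTM1, GABARAPL1 and GLA are high in the high-dose libraries of Sayeok-tang, both gingers and Scutellariae Radix, and MAP1LC3B stands out in Scutellariae Radix high at 208 to 220 CPM. The 1 library of Coptidis Rhizoma medium is the highest of all for GABARAPL1 (23.6 CPM) and MAP1LC3B (235 CPM). TFEB is low in those 4 high-dose groups and also at the medium and low doses of Scutellariae Radix (9.98 to 11.7 CPM).

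Within the ATG8 family the 4 genes split. GABARAPL1 (ENSG00000139112, chr12:10212458-10223130), whose product is attached to the autophagosome membrane, had 7.74, 7.37 and 8.02 CPM in the vehicle. With Scutellariae Radix high it had 18.2, 16.3 and 18.5 CPM, with fresh ginger high 15.7, 15.2 and 15.0 CPM, with dried ginger high 14.6 and 13.6 CPM and with Sayeok-tang high 10.6, 10.8 and 11.0 CPM. Every library of these 4 groups exceeded the vehicle range. The log2 changes were 1.2 ± 0.0842 (adjusted p = 1.4e-16), 0.99 ± 0.0856 (1.9e-13), 0.87 ± 0.0964 (2.4e-10) and 0.48 ± 0.0888 (1.7e-05) in that order. Pinelliae Tuber high, at 7.09, 7.46 and 6.59 CPM, overlapped the vehicle and was not called.

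MAP1LC3B (ENSG00000140941, chr16:87383995-87404779), the LC3 isoform used as the usual marker of autophagosomes, followed a different order of extracts. It stood at 99.1, 96.6 and 99.9 CPM in the vehicle and at 220, 208 and 216 CPM with Scutellariae Radix high, a log2 change of 1.12 ± 0.0401 (adjusted p = 3.7e-27). The gingers raised it less, to 122, 124 and 121 CPM with fresh ginger high (0.31 ± 0.0407) and to 132 and 134 CPM with dried ginger high (0.43 ± 0.0452). Sayeok-tang high, at 101, 96.8 and 107 CPM, overlapped the vehicle range. GABARAPL2 rose by 0.35 ± 0.0517 with Scutellariae Radix high and by 0.19 ± 0.0587 with dried ginger high. GABARAP, the founding member of its branch, was lower in 3 extracts, from 114, 108 and 116 CPM in the vehicle to 101, 96.5 and 97.0 CPM with Sayeok-tang high (-0.20 ± 0.0502), 100, 106 and 93.9 CPM with fresh ginger high (-0.17 ± 0.0503) and 96.5, 104 and 104 CPM with Scutellariae Radix high (-0.15 ± 0.0502). The fresh ginger call was lost without fresh ginger high replicate 3 (adjusted p = 0.06), and the Scutellariae Radix call without its replicate 1 (0.091) or vehicle replicate 3 (0.064). Mean GABARAP was already 106 CPM with fresh ginger low and 102 CPM with Scutellariae Radix low, beside 100 and 102 CPM at their high doses. In neither extract was it called lower from low to high dose. With Sayeok-tang the means were 110 CPM at the low and 98.1 CPM at the high dose. Near copies of these genes had few reads, 6 to 38 counts for MAP1LC3B2 beside at least 2118 for MAP1LC3B, and 0 to 1 for GABARAPL3 beside at least 158 for GABARAPL1.

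The initiation and conjugation genes changed by less than 0.5 in every high dose comparison. Of the 9, 5 were higher and 1 lower with fresh ginger high (24.3% and 23.6% of all genes), 4 and 0 with dried ginger high (23.3% and 22.8%), 4 and 1 with Scutellariae Radix high (28.7% and 28.1%), and 3 and 2 with Sayeok-tang high (20.3% and 19.9%). ATG16L1 and ATG12, which form the conjugation complex with ATG5, and UVRAG, a partner of BECN1, were higher in all 4, by 0.18 to 0.42 for ATG16L1, 0.13 to 0.27 for ATG12 and 0.18 to 0.37 for UVRAG. For ATG12 the Sayeok-tang high libraries, at 44.7, 44.2 and 40.5 CPM, overlapped the vehicle at 41.1, 39.3 and 38.1 CPM. Its mean was 44.1 CPM with fresh ginger high and 43.3 CPM with dried ginger medium, where it was not called. ATG5 was not called in any high dose comparison with the vehicle. ATG3, the enzyme that transfers ATG8 proteins to lipid, fell from 41.3, 41.8 and 41.8 CPM to 34.9, 37.6 and 33.4 CPM with fresh ginger high (-0.24 ± 0.0468) and to 37.9, 37.3 and 37.8 CPM with Scutellariae Radix high (-0.14 ± 0.0465). No library of either group overlapped the vehicle, whose range was narrow. Groups in which ATG3 was not called also lay wholly below that range, such as Pinelliae Tuber low (36.5 to 37.7 CPM) and fresh ginger low (37.9 to 39.5 CPM). Against the low dose of the same extract the falls were -0.12 ± 0.047 with fresh ginger and -0.15 ± 0.0462 with Scutellariae Radix, both called.

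WIPI1, which binds the phosphoinositide made at the site of autophagosome formation, and the kinase ULK1 were higher with fresh ginger but not with every extract. WIPI1 was at 38.2, 37.6 and 40.3 CPM in the vehicle, at 51.3, 50.3 and 50 CPM with fresh ginger high (0.38 ± 0.0478, adjusted p = 4.4e-09) and at 47.3 and 45.7 CPM with dried ginger high (0.26 ± 0.0541, adjusted p = 7.5e-05). Pinelliae Tuber high gave 31.4, 32.3 and 33.3 CPM, below the vehicle (-0.26 ± 0.0494, adjusted p = 0.00018), and Scutellariae Radix high gave 37.9, 36.3 and 38.7 CPM, not called. ULK1 was at 24.7, 23.6 and 23.5 CPM in the vehicle and at 33.9, 29.1 and 28.0 CPM with fresh ginger high (0.34 ± 0.0714). With dried ginger high it was at 25.4 and 25.3 CPM and not called, and with Sayeok-tang high at 20.1, 21.7 and 20.2 CPM, which was lower (-0.21 ± 0.0737, adjusted p = 0.02).

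TFEB (ENSG00000112561, chr6:41683978-41736259), the factor that drives lysosomal genes, had the largest fall of the 36 genes in each of the 4 extracts with many changes. The vehicle libraries held 13.2, 14.7 and 14.4 CPM. Dried ginger high held 7.13 and 8.94 CPM, Scutellariae Radix high 8.78, 8.66 and 9.65 CPM, Sayeok-tang high 9.57, 9.91 and 9.54 CPM, and fresh ginger high 11.2, 9.0 and 9.93 CPM. None of these 11 libraries reached the lowest vehicle value. The log2 changes were -0.81 ± 0.0911 (adjusted p = 3.3e-10), -0.64 ± 0.0773 (1.1e-09), -0.55 ± 0.0762 (9.7e-08) and -0.50 ± 0.0763 (4.8e-07) in that order. Bojungikgi-tang high, at 13.8 and 14.5 CPM, and Pinelliae Tuber high, at 13.1, 13.3 and 14.3 CPM, lay at the vehicle level. Its relative TFE3, which binds the same motif, moved the other way, from 42.2, 43.1 and 43.9 CPM in the vehicle to 53.8, 48.7 and 48.5 CPM with fresh ginger high (0.22 ± 0.045), 50.2 and 48.9 CPM with dried ginger high (0.20 ± 0.0507) and 48.1, 45.7 and 46.4 CPM with Scutellariae Radix high (0.12 ± 0.0452).

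Lysosomal membrane genes showed small differences. LAMP1, the most abundant glycoprotein of that membrane, was at 248, 253 and 256 CPM in the vehicle. It was higher with dried ginger (290 and 303 CPM, 0.23 ± 0.0444), Scutellariae Radix (294, 277 and 286 CPM, 0.18 ± 0.0399), Pinelliae Tuber (295, 271 and 274 CPM, 0.15 ± 0.0398) and fresh ginger (289, 271 and 269 CPM, 0.13 ± 0.0399), all at the high dose. The calls for Pinelliae Tuber and fresh ginger were each lost without replicate 1 of the treated group (adjusted p = 0.087 and 0.066). LAMP2, the receptor of chaperone-mediated autophagy, was not called in any high dose comparison with the vehicle. MCOLN1, the calcium channel whose promoter carries the whole CLEAR element, rose from 10.7, 11.4 and 11.6 CPM to 15.6 and 15.8 CPM with dried ginger high (0.49 ± 0.0866), 13.9, 13.6 and 13.8 CPM with Scutellariae Radix high (0.30 ± 0.0781) and 14.2, 12.8 and 12.1 CPM with fresh ginger high (0.22 ± 0.0788). MCOLN1 shares exonic sequence on its own strand with 2 other annotated genes, one of them PNPLA6, so its counts depend on how reads were divided between them.

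The lysosomal hydrolases held 3 of the largest rises. GLA (ENSG00000102393, chrX:101397803-101408012), the alpha-galactosidase deficient in Fabry disease, was at 25.6, 26.2 and 26.0 CPM in the vehicle. It reached 44.8, 47.6 and 45.7 CPM with Sayeok-tang high, 41.8, 41.9 and 44.0 CPM with fresh ginger high, 47.2 and 49.1 CPM with dried ginger high and 40.6, 39.1 and 40.4 CPM with Scutellariae Radix high. The ranges are far apart from the vehicle, and the changes were 0.83 ± 0.0466 (adjusted p = 2.3e-19), 0.71 ± 0.0469 (2.5e-17), 0.89 ± 0.0516 (3.8e-19) and 0.63 ± 0.0471 (1.3e-15). GLA was the other gene called with Bojungikgi-tang high, at 30.5 and 30.8 CPM (0.24 ± 0.0539, adjusted p = 0.004), a call lost without Bojungikgi-tang high replicate 2 (adjusted p = 0.056).

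The endoproteases CTSL and CTSB rose in the gingers and Scutellariae Radix. CTSL (ENSG00000135047, chr9:87725519-87731393) went from 54.5, 52.4 and 49.6 CPM in the vehicle to 104 and 105 CPM with dried ginger high, 94.5, 83.9 and 95.5 CPM with Scutellariae Radix high and 76.8, 75.8 and 73.1 CPM with fresh ginger high. CTSB went from 386, 390 and 396 CPM to 714 and 694 CPM, 644, 585 and 614 CPM, and 533, 497 and 524 CPM in the same order. Both genes thus ranked the 3 extracts alike, with dried ginger first. The changes were 1.00 ± 0.0529, 0.81 ± 0.0482 and 0.53 ± 0.0488 for CTSL and 0.85 ± 0.0342, 0.65 ± 0.0311 and 0.41 ± 0.0311 for CTSB, each with an adjusted p of at most 1.2e-12. Sayeok-tang high moved CTSL to 61.8, 62.9 and 62.9 CPM (0.26 ± 0.0492) and left CTSB at 392, 398 and 394 CPM, not called. CTSV, a near copy of CTSL, had 77 to 222 counts beside at least 1040 for CTSL.

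The remaining hydrolases were mixed. CTSD, the main aspartic protease of the lysosome, was at 315, 303 and 323 CPM in the vehicle and lower with Sayeok-tang high at 281, 263 and 264 CPM (-0.22 ± 0.0509, adjusted p = 0.00043). It was higher with dried ginger high at 363 and 343 CPM (0.17 ± 0.0566, adjusted p = 0.012), and that call was lost without vehicle replicate 2 (adjusted p = 0.056) or dried ginger high replicate 1 (0.16). NEU1, a sialidase, fell from 338, 329 and 336 CPM to 288, 273 and 288 CPM with Sayeok-tang high (-0.24 ± 0.0296, adjusted p = 6.8e-09) and to 310, 305 and 306 CPM with Pinelliae Tuber high (-0.12 ± 0.0295, adjusted p = 0.003). At the low dose mean NEU1 was 333 CPM with Sayeok-tang and 320 CPM with Pinelliae Tuber. NEU1 was called lower from low to high dose in Sayeok-tang but not in Pinelliae Tuber. Its fall of 0.08 with fresh ginger high was lost in the fit of only the 2 groups compared (adjusted p = 0.16) and without vehicle replicate 1 or 3 or fresh ginger high replicate 2 or 3. HEXA, which degrades gangliosides, rose in the same 3 extracts as CTSL and CTSB, by 0.24 ± 0.0394, 0.40 ± 0.0437 and 0.23 ± 0.0394 with fresh ginger, dried ginger and Scutellariae Radix high. GAA, the other gene with the whole CLEAR element, was at 125, 130 and 130 CPM in the vehicle. It rose to 154 and 147 CPM with dried ginger high (0.23 ± 0.0651, adjusted p = 0.0037) and to 148, 153 and 157 CPM with Scutellariae Radix high (0.25 ± 0.0582, adjusted p = 0.00025), with no overlap with the vehicle. With fresh ginger high it was at 152, 129 and 132 CPM and with Sayeok-tang high at 138, 135 and 130 CPM, neither called. CTSA, a protective protein for NEU1, was higher with dried ginger (0.14 ± 0.0427) and lower with Sayeok-tang, fresh ginger and Scutellariae Radix (-0.10 to -0.12). It overlaps PLTP on the other strand.

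In the V-ATPase only ATP6V1D and ATP6V1H, of the 6 subunit genes, were higher in all 4 of these extracts. ATP6V1H, the regulatory subunit of the cytosolic domain, stood at 29.4, 32.5 and 31.1 CPM in the vehicle, 35, 37.7 and 37.1 CPM with Sayeok-tang high, 36, 40.2 and 40.3 CPM with fresh ginger high, 39.8 and 41.3 CPM with dried ginger high and 45.1, 42.2 and 46.3 CPM with Scutellariae Radix high. These libraries all exceeded the vehicle, by 0.24 ± 0.0548, 0.33 ± 0.0547, 0.39 ± 0.0611 and 0.52 ± 0.054. ATP6V1D rose by 0.20 to 0.45. ATP6V0D1, a subunit of the membrane domain with a CLEAR core in its promoter, went from 66.3, 68.9 and 71.0 CPM to 82.7 and 77.8 CPM with dried ginger high (0.22 ± 0.0495) and to 76.1, 72.6 and 76.6 CPM with Scutellariae Radix high (0.13 ± 0.0442). The second of these calls was lost without vehicle replicate 1 (adjusted p = 0.075) or Scutellariae Radix high replicate 3 (0.05). ATP6V1B2, the nucleotide-binding B subunit, was not called in any high dose comparison with the vehicle.

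At lower doses most of these genes were not called. Scutellariae Radix had the most calls, with 3 higher and 6 lower at 100 µg/mL (8.99% and 9.33% of all genes) and 2 higher and 7 lower at 20 µg/mL (5.44% and 4.87% of all genes). The shares of the 36 genes called were 8.33% and 16.7%, then 5.56% and 19.4%, so those called higher were near the shares of all genes. SQSTM1 and GLA were higher at both doses. SQSTM1 was at 347, 339 and 345 CPM at the medium dose (0.41 ± 0.0356) and at 291, 293 and 268 CPM at the low dose (0.14 ± 0.0356, adjusted p = 0.0095). GLA was at 34.9, 32.8 and 35.5 CPM (0.41 ± 0.0477) and at 32.7, 31.4 and 33.2 CPM (0.32 ± 0.0478). All the low-dose libraries of both genes were above the vehicle.

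The genes lower at both doses were TFEB, WIPI1, ULK1, NBR1 and CTSD, which have different roles. TFEB was at 9.98, 10.4 and 10.6 CPM at the medium dose (-0.45 ± 0.0759, adjusted p = 1.3e-05) and at 10.6, 11.7 and 10.5 CPM at the low dose (-0.37 ± 0.075, adjusted p = 0.00068). WIPI1 was at 27.1, 29.3 and 26.9 CPM (-0.48 ± 0.0505) and at 32.3, 29.9 and 31.8 CPM (-0.30 ± 0.0497), and ULK1 at 18.8, 18.6 and 17.6 CPM (-0.38 ± 0.0749) and at 19.7, 22.1 and 17.6 CPM (-0.27 ± 0.0741). In all 3 genes every library of both doses lay below the vehicle. NBR1 was lower at both doses as well (-0.23 ± 0.0389 and -0.21 ± 0.0388), as was CTSD (-0.15 ± 0.0509 and -0.18 ± 0.0509). At the high dose TFEB remained low, whereas WIPI1 and ULK1 were at 36.3 to 38.7 and 24.2 to 26.9 CPM. Replicate 3 of the low dose is the library that stood apart. Without the 3 such libraries 8 genes were called at the low dose in place of 9, and in a fit of only the 2 groups compared 4.

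In the other extracts that had replicates, at most 3 of these genes were called below 500 µg/mL. Fresh ginger medium raised SQSTM1 to 326, 307 and 316 CPM (0.29 ± 0.0356) and GLA to 31.1, 29.5 and 31.7 CPM (0.25 ± 0.0485), with NBR1 lower by 0.15 (6.63% of all genes higher and 4.66% lower). Its count of 3 was the most dependent on the settings, at 5 with RLE scaling (the size factors of DESeq2) and 8 in a fit of only the 2 groups compared or without the 3 libraries. With Sayeok-tang medium TFEB, at 11.6, 11.7 and 12.0 CPM (-0.26 ± 0.0753, adjusted p = 0.034), and NBR1 were lower (2.17% of all genes higher and 2.04% lower), and 1 of these 2 calls was lost without any single one of 5 of the 6 libraries compared (all but vehicle replicate 1). Dried ginger medium raised NEU1 by 0.12 ± 0.0294 (0.703% of all genes higher and 0.746% lower), a call lost in a fit of only the 2 groups, and without vehicle replicate 2 or 3 or dried ginger medium replicate 1 or 2.

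None of the 36 was called in the remaining comparisons with the vehicle. For Sayeok-tang low, 3 had an unadjusted p below 0.05 (0.0143% and 0.043% of all genes called higher and lower). For Bojungikgi-tang medium and low, 2 and 1 did (0.0215% and 0.043%, then 0% and 0% of all genes called). For fresh ginger low and dried ginger low, 5 and 8 did (0.509% and 0.0932%, then 1.69% and 0.43% of all genes), and for Pinelliae Tuber medium and low 5 each (0.122% and 0.165%, then 0.237% and 0.0359%). DESeq2 called 1 gene each in fresh ginger low and dried ginger low and 0 in the other 5.

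High dose was then compared with low dose of the same extract, which keeps the code prefix equal. The counts were 10 higher and 7 lower for Sayeok-tang (18.4% and 19.3% of all genes), 1 and 0 for Bojungikgi-tang (0.81% and 0.875%), 19 and 3 for fresh ginger (23.3% and 24.3%), 27 and 1 for dried ginger (23.2% and 24.3%), 5 and 3 for Pinelliae Tuber (5.09% and 4.98%) and 25 and 4 for Scutellariae Radix (27.2% and 28.5%). Without the 3 libraries that stood apart they were 25 and 1 for dried ginger and 24 and 3 for Scutellariae Radix. In Bojungikgi-tang 4 genes had an unadjusted p below 0.05. SQSTM1 was again called higher in each of the 6, by 0.99, 0.17, 1.45, 1.73, 0.32 and 1.01 in the same order. Its rise within Bojungikgi-tang was lost in a fit of only the 2 groups compared, and without Bojungikgi-tang high replicate 3 or either low-dose library. TFEB fell by 0.56 with Sayeok-tang, 0.49 with fresh ginger, 0.88 with dried ginger and 0.27 with Scutellariae Radix, whose low dose was already below the vehicle. In Scutellariae Radix WIPI1 and ULK1 rose from low to high dose, by 0.26 ± 0.0496 and 0.39 ± 0.0732, from low-dose levels below the vehicle. Without Sayeok-tang low replicate 2 the count of 7 lower fell to 4, and without Scutellariae Radix low replicate 3 the count of 4 lower fell to 2.

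Whether the dose response differed between extracts was tested as the difference of the 2 high against low changes, a test added after the values were seen. Of the 36 genes, 5 had a higher and 9 a lower dose change with Scutellariae Radix than with dried ginger (13.6% and 14.4% of all genes). MAP1LC3B rose more with Scutellariae Radix, by 0.65 ± 0.0605 (adjusted p = 1.2e-11), and SQSTM1 less, by -0.72 ± 0.0524 (adjusted p = 6.2e-15). GLA (-0.65 ± 0.0688), CTSL (-0.38 ± 0.0712) and CTSB (-0.27 ± 0.0463) also rose less, and TFEB fell less (0.61 ± 0.12). The baselines were unlike. Scutellariae Radix low was itself changed against the vehicle in SQSTM1 (0.14 ± 0.0356), GLA (0.32 ± 0.0478) and TFEB (-0.37 ± 0.075). In dried ginger low none of the 36 was called. At the high dose mean GLA was 40 CPM with Scutellariae Radix and 48.1 CPM with dried ginger, and mean TFEB 9.03 and 8.03 CPM. The difference for GABARAPL1, 0.26 ± 0.126, did not pass (adjusted p = 0.12), which does not show that the 2 extracts act alike on it. Against fresh ginger, MAP1LC3B again rose more with Scutellariae Radix (0.85 ± 0.0569, adjusted p = 4.2e-16), with 7 genes higher and 3 lower in all (13.2% and 15.3% of all genes). In Sayeok-tang 18 genes had a lower dose change than in dried ginger and 0 a higher one (8.28% and 8.97% of all genes). The largest gaps were CTSB (-0.87 ± 0.0464), CTSL (-0.84 ± 0.0723) and SQSTM1 (-0.74 ± 0.0525), while GLA, at -0.16 ± 0.0694, did not pass (adjusted p = 0.12). Each called difference between dose changes named here held without the 3 libraries that stood apart. The doses match by extract mass, which says nothing of the content of any compound.

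**Figure D4:**
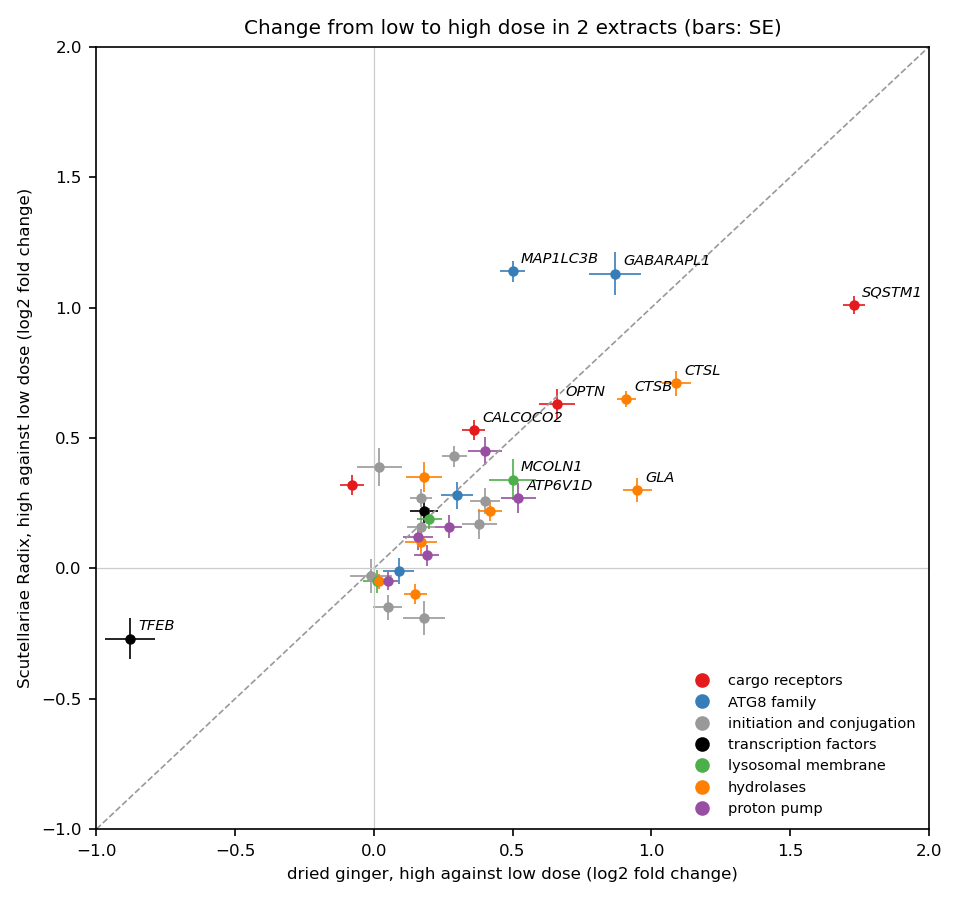
Log2 change from low to high dose of each tested gene in dried ginger (horizontal) and Scutellariae Radix (vertical), coloured by role, with bars for the SE and a dashed line of equal change. MAP1LC3B lies above the line at 0.50 and 1.14, while SQSTM1 (1.73 and 1.01), GLA (0.95 and 0.30), CTSL and CTSB lie below it. The low dose of Scutellariae Radix already differed from the vehicle in SQSTM1, GLA and TFEB.

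The 3 pairs of extracts that share a code prefix were set against each other at 500 µg/mL. Fresh and dried ginger differed in 15 genes, 13 lower and 2 higher in fresh ginger (10.2% and 13.2% of all genes). The labels do not say whether the 2 extracts came from the same plant material. Of the 8 hydrolases tested 6 were lower in fresh ginger, among them CTSL (-0.47 ± 0.0517, adjusted p = 6.9e-10), CTSB (-0.44 ± 0.0342) and CTSA (-0.25 ± 0.0427). SQSTM1 (-0.35 ± 0.0385) and MCOLN1 (-0.27 ± 0.085) were lower too. TFEB (0.32 ± 0.0945) and ULK1 (0.26 ± 0.0805) were higher. GABARAPL1 differed by 0.11 ± 0.0895 and OPTN by -0.03 ± 0.0624, neither called. The count of 13 was 7 without either dried ginger high library and without a filter, and 5 in a fit of only the 2 groups compared. The 2 genes higher were not called in that last fit.

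Pinelliae Tuber and Scutellariae Radix differed in the most genes, with 22 genes lower and 4 higher in Pinelliae Tuber (27.2% and 28.7% of all genes). GABARAPL1 (-1.33 ± 0.0842), MAP1LC3B (-1.2 ± 0.0401), SQSTM1 (-0.91 ± 0.0353), CTSL (-0.79 ± 0.0478) and CTSB (-0.70 ± 0.0311) were at least 1.5-fold lower in Pinelliae Tuber, and TFEB was higher (0.59 ± 0.0769). Between the formulas, 9 genes were lower and 4 higher in Bojungikgi-tang than in Sayeok-tang (13.2% and 13% of all genes). SQSTM1 (-0.85 ± 0.0404) and GLA (-0.59 ± 0.0519) led the lower genes and TFEB (0.55 ± 0.0849) the higher ones. Without the 3 libraries that stood apart, none of them in these groups, 14 were lower in place of 9.

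The groups of 1 library have no replicate check, and a gene is listed for them only where it was at least 1.5-fold from the vehicle mean and outside the vehicle range. Coptidis Rhizoma at 56 µg/mL had 6 genes higher and 0 lower by that rule (10.4% and 10.8% of all genes). GABARAPL1 was at 23.6 CPM (3.06-fold the vehicle mean), SQSTM1 at 776 CPM (3-fold), MAP1LC3B at 235 CPM (2.39-fold), CTSB at 820 CPM (2.1-fold), OPTN at 39.7 CPM (1.79-fold) and CTSL at 91.6 CPM (1.76-fold). All 6 were also called higher with both gingers and Scutellariae Radix at the high dose, and GLA, at 33.8 CPM, fell short of the rule. NEU1 fell short of it in the other direction, at 237 CPM (0.71-fold), below the vehicle range of 329 to 338 CPM. GABARAPL1, MAP1LC3B, CTSB and OPTN were higher in this library than in any other of the 58. At 11.2 µg/mL only SQSTM1 passed, at 408 CPM or 1.58-fold, with 0 lower (3.13% and 2.83% of all genes). WIPI1, at 55.1 and 49.5 CPM in the 2 Coptidis Rhizoma libraries, lay above the vehicle in both. In the 3 Zizyphi Fructus libraries 0 of the 36 genes passed in either direction (1.28% and 1.13% of all genes at the high, 1.25% and 1.33% at the medium and 1.75% and 1.66% at the low dose).

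A further 140 genes of the same pathways, listed by role, gave the wider picture, and 128 of them were tested. At the high dose 28 (21.9%) were higher and 23 (18%) lower with Sayeok-tang, about the shares of all genes (20.3% and 19.9%). With Bojungikgi-tang 4 were higher and 2 lower (3.12% and 1.56%, beside 2.24% and 2.31% of all genes), and with Pinelliae Tuber 7 and 10 (5.47% and 7.81%, beside 9.14% and 6.57%). Fresh ginger gave 48 and 12 (37.5% and 9.38%, beside 24.3% and 23.6%), dried ginger 58 and 8 (45.3% and 6.25%, beside 23.3% and 22.8%) and Scutellariae Radix 56 and 26 (43.8% and 20.3%, beside 28.7% and 28.1%). By role, the membrane proteins of the lysosome had the highest share in dried ginger, with 11 of 17 higher and 0 lower. The proton pump had 8 of 13 higher and 3 lower with Scutellariae Radix, and the regulators 15 of 25 higher and 3 lower. Of the further cargo receptors 3 of 13 were higher and 6 lower with Scutellariae Radix, beside the 4 receptors described above, which were all called higher there. These shares by role were not tested against those of all genes.

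Single genes of these lists moved as far as the leading ones above. CCPG1, a receptor for the endoplasmic reticulum, rose from 31.6 CPM in the vehicle to 71.9 CPM with dried ginger high (1.18 ± 0.0525), 52.8 CPM with fresh ginger high (0.74 ± 0.0486) and 47.9 CPM with Sayeok-tang high (0.60 ± 0.0488). SESN2, a stress-induced brake on the kinase complex mTORC1, rose from 25.8 to 76.7 CPM with Scutellariae Radix high (1.57 ± 0.0501, adjusted p = 4.8e-29), but was lower at its medium (-0.26 ± 0.0547) and low dose (-0.26 ± 0.0546). SESN2 was also lower than the vehicle with Bojungikgi-tang high (-0.3), Pinelliae Tuber low (-0.24), fresh ginger medium (-0.2) and Sayeok-tang medium (-0.19). IDS, a sulfatase of glycosaminoglycan breakdown, rose from 17.3 CPM to 36.5 CPM with Scutellariae Radix high (1.08 ± 0.0729), 31.9 CPM with dried ginger high and 30.8 CPM with fresh ginger high. BNIP3L, a mitochondrial receptor, rose with fresh ginger high to 47.1 CPM from 25.9 CPM (0.86 ± 0.0678) and was 0.92 ± 0.0782 higher there than with dried ginger high. It was also called higher with fresh ginger medium (0.54 ± 0.0692), fresh ginger low (0.41 ± 0.0692) and Pinelliae Tuber low (0.31 ± 0.0701). DEPTOR, an inhibitor within mTORC1, had the largest falls, at under 1 CPM: from a mean of 0.943 CPM in the vehicle to 0.215 CPM with Sayeok-tang high (-2.08 ± 0.395), 0.425 CPM with fresh ginger high (-1.15 ± 0.349) and 0.418 CPM with Scutellariae Radix high (-1.17 ± 0.349). Other falls were those of SMPD1, the acid sphingomyelinase (-0.54 ± 0.0825 with Sayeok-tang high), ARSB, a sulfatase (-0.83 ± 0.0384 with Scutellariae Radix high, from 160 to 89.9 CPM), NCOA4, the ferritin receptor (-0.53 ± 0.0368 with Scutellariae Radix high), and GM2A, a cofactor of HEXA (-0.50 ± 0.0327 with Sayeok-tang high). SMPD1 was also lower with Pinelliae Tuber high (-0.39 ± 0.0811) and with Scutellariae Radix medium (-0.29 ± 0.0808) and low (-0.47 ± 0.082).

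The 8 genes with a CLEAR core in the promoter window and the 20 tested genes with a window but no core were described side by side, without a test. With Scutellariae Radix high 4 of the 8 were higher and 3 lower (median 0.02), and 14 of the 20 were higher and 2 lower (median 0.32), beside 28.7% and 28.1% of all genes. With fresh ginger high 2 of the 8 were higher and 3 lower (median 0.02), and 13 of the 20 higher and 2 lower (median 0.23), beside 24.3% and 23.6% of all genes. The medians were closer with dried ginger high (0.20 for 6 of 8 higher, 0.22 for 13 of 20 higher, beside 23.3% of all genes) and with Sayeok-tang high (-0.02 and 0.05). The largest change among the 8 was that of MCOLN1 in dried ginger, 0.49, below those of SQSTM1, GABARAPL1, GLA and CTSL.

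**Figure D5:**
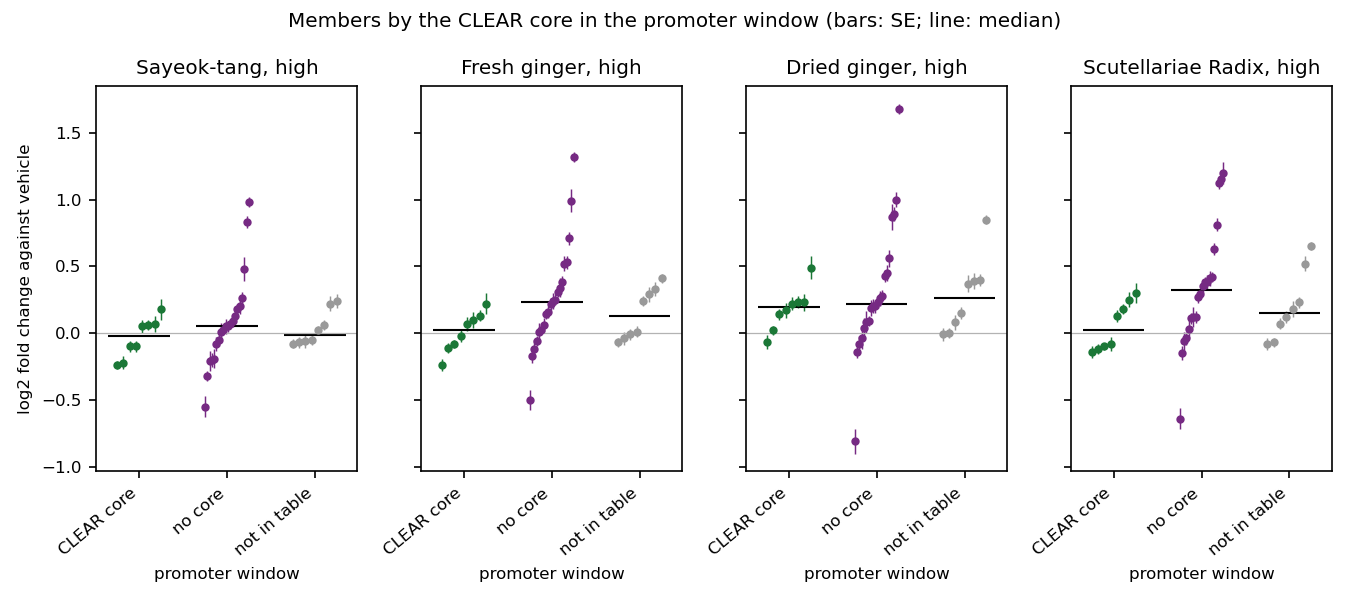
Log2 change against the vehicle at the high dose of the tested genes whose RefSeq promoter window has the CLEAR core (green), lacks it (purple) or is not in the table (grey), in 4 extracts, with bars for the SE and lines for the medians. In all 4 extracts the green points lie between -0.24 and 0.49, inside the spread of the purple points.

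Exons of 18 of the 37 genes overlap a gene on the other strand, and 4 overlap one on their own strand. SQSTM1 overlaps MGAT4B and MRNIP, MAP1LC3B overlaps FBXO31, OPTN overlaps CCDC3, WIPI1 overlaps ARSG and GABARAPL1 overlaps a gene known only by its clone name, all on the opposite strand. The 4 with an overlap on their own strand are GABARAP, MCOLN1, CTSD and HEXA. The library kit keeps strand, but whether the counting used it is not given in the sources used here, so for these genes reads of the partner cannot be told apart. GLA, CTSL, CTSB, TFEB, ULK1 and LAMP1 have no such overlap.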

How the data were processed

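Messenger RNA libraries were made from total RNA of HepG2 cells with a directional kit and read as paired ends, per the labels' protocols. The deposited values were expected counts per gene, which the authors estimated with RSEM 1.3.3 after STAR 2.7.3a alignment to GRCh38 and trimming with Trim Galore 0.6.5, per the submitters' processing notes. RSEM divides reads that fit several genes, so near copies depend on that division. Of the nonzero values 75.26% were whole numbers, and all were rounded. The table held 209 further columns that the labels do not map to these samples, and they were not used here. Symbols came from a current table (56558 identifiers) and GENCODE 29 (497).

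CPM was computed here from the deposited counts. A gene was tested where 3 or more libraries reached 1 CPM (13945 genes), with TMM scaling (factors 0.878 to 1.04) and edgeR 4.0.16 quasi-likelihood in R 4.3.3, 1 mean for each of 24 groups over 58 libraries, two-sided, with Benjamini-Hochberg adjustment. Replicates varied by 4.25% (dispersion 0.00181). The SE was derived from the fold change and the test's F. There were 27 comparisons. Replicates were not copies, with a lowest chi-square of 2.18 per gene. DESeq2 1.42.0, other scaling, no filter, fewer samples and a replicate block were alternatives. Replicate numbers in the labels did not pair libraries, as the closing section gives.

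Values by library are printed for the 3 largest called rises and falls of each high dose comparison and for SQSTM1, MAP1LC3B, GABARAPL1, TFEB, LAMP1, CTSD and ATP6V0D1, and for some others chosen after their values were seen. Of the further genes the 3 largest called changes each way could be named. The genes, lists and tests were chosen with earlier results of these data known. Promoter sequences are RefSeq's, on GRCh38.p14, and positions of genes are from GENCODE 29.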

Additional observations from a re-analysis of the deposited data

How the results depend on the processing

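No recomputed fold change that was called in the main or the alternative run changed direction, and those called in neither were not checked for it. The counts of genes higher with fresh ginger, dried ginger and Scutellariae Radix high kept within 1.5 times (17 to 19, 20 to 24 and 20 to 22 when 1 library was left out). Replicate numbers did not pair the libraries: same-numbered libraries had a median correlation of deviations of 0.003 within a prefix and 0.008 between prefixes. With the replicate block no count moved by over 1.5 times, for example 25 in place of 24 higher with dried ginger high, and 7 in place of 9 lower between the formulas.

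Small counts moved. With RLE scaling the called genes were 5 for fresh ginger medium, 1 for fresh ginger low and 2 for dried ginger medium. With no filter they were 1 higher and 1 lower for Bojungikgi-tang high, 3 lower for fresh ginger high, 0 for dried ginger medium, 1 for dried ginger low, 0 higher for Bojungikgi-tang high against low, 1 lower for fresh ginger high against low, 7 lower for fresh against dried ginger and 2 higher for Pinelliae Tuber against Scutellariae Radix. In a fit of only the 2 groups compared they were 1 higher for Bojungikgi-tang high, 3 lower for fresh ginger high, 8 for fresh ginger medium, 1 for fresh ginger low, 0 for dried ginger medium, 4 for Scutellariae Radix low, 0 higher for Bojungikgi-tang high against low, 1 lower each for fresh ginger and Scutellariae Radix high against low, and 0 higher and 5 lower for fresh against dried ginger. DESeq2 gave 1 for fresh ginger low, 2 for dried ginger medium and 1 for dried ginger low. Without the 3 libraries that stood apart they were 8 for fresh ginger medium, 1 for fresh ginger low, 2 for dried ginger medium, 5 lower for Pinelliae Tuber high, 2 and 1 for its medium and low dose, and 14 lower for Bojungikgi-tang against Sayeok-tang. The cause was not tested.

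Leaving out 1 library at a time gave 1 to 2 called for Sayeok-tang medium, 1 higher throughout for Bojungikgi-tang high, 2 to 6 lower for fresh ginger high (2 without fresh ginger high replicate 3), 1 to 2 lower for dried ginger high (1 without vehicle replicate 2 or dried ginger high replicate 1), 0 to 2 for dried ginger medium, 0 to 3 for dried ginger low (3 and 2 without its replicates 1 and 2), 1 to 3 higher for Pinelliae Tuber high and 3 to 5 lower for Scutellariae Radix high (3 without vehicle replicate 3). It gave 4 to 7 lower for Sayeok-tang, 0 to 1 higher for Bojungikgi-tang and 2 to 4 lower for Scutellariae Radix, high against low, and 0 to 2 higher and 7 to 14 lower for fresh against dried ginger. Where this left 1 library in a group, it was assumed to vary like the other groups. In all, 27 fold change results lost and 13 gained a call. Genes near 1 CPM, CTSZ first, are limited by depth.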
